A study of Mus musculus with 14 samples.

Results

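Spheroids carrying a hairpin against *Dhps* were compared with spheroids carrying a non-targeting control hairpin, all of them grown with added aspartate. The comparison was set by the group labels and held 8 of the 14 libraries of the series, 4 of ASP shDHPS and 4 of ASP shSCR. The cells were 4T1, a mouse triple-negative mammary cancer line that forms small 3-dimensional aggregates (spheroids) in culture. Both groups were grown over 5 days in a medium modelled on lung fluid, lung-like medium (LLM), to which 700 µM aspartate (ASP) was added, so that the groups differed in the hairpin and shared the medium, the aspartate and the time. The remaining libraries, 3 of ASP shGRIN2D (a hairpin against the NMDA receptor gene *Grin2d*, with aspartate) and 3 of NoASP shSCR (the control hairpin without added aspartate), were used as further reference groups. Both hairpins were delivered with lentiviral pLKO vectors, and transduced cells were selected with puromycin as polyclonal lines. The labels name 1 group with a *Dhps* hairpin, so that effects of *Dhps* loss and of other targets of this hairpin, if any, cannot be told apart. RNA came from the cytosolic lysate of spheroids washed with cycloheximide, and polyadenylated RNA was sequenced with a stranded kit.

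*Dhps* encodes deoxyhypusine synthase, which moves an aminobutyl group from the polyamine spermidine onto a lysine of the translation factor eIF5A. Deoxyhypusine hydroxylase, encoded by *Dohh*, then completes the amino acid hypusine. Hypusinated eIF5A helps the ribosome through sequences that are slow to form peptide bonds, such as runs of proline, and it takes part in termination. Among the proteins whose synthesis is known to depend on it is TFEB, a member of the MiT/TFE family of transcription factors, which switches on genes for lysosomes and autophagy. The libraries measured mRNA levels and not translation.

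The 8 libraries held 12731123 to 23231378 counts each, over a table of 19525 genes. Levels are given as CPM, the counts scaled to a common library size with the TMM factors of edgeR, and differences as log2 fold changes of ASP shDHPS minus ASP shSCR from edgeR's quasi-likelihood test on all 14 libraries. A gene was called at a Benjamini-Hochberg adjusted p under 0.05. On the first principal component of the 8 libraries (24.1% of the variance), ASP shSCR lay between -52.9 and -10.1 and ASP shDHPS between 17.1 and 33.1. ASP shSCR replicate 2 lay at -52.9, apart from the other control libraries at -25.05 to -10.1. The 9 epithelial markers checked for the line were all present, from 82.8 CPM (*Cldn7*) to 1677 CPM (*Krt8*) in the mean of ASP shSCR and from 79.0 to 1473 CPM for the same genes in ASP shDHPS. Of 22 leukocyte markers, 12 were in the table, none was called by edgeR or DESeq2 and 1 had an unadjusted p under 0.05, and their summed level was 13.8 to 23.9 CPM in ASP shSCR and 21.9 to 25.4 CPM in ASP shDHPS. Of 12 fibroblast markers, 6 were in the table and none was called by edgeR or DESeq2, while 2 were lower at an unadjusted p under 0.05. Their sum was 173 to 295 CPM against 183 to 215 CPM, most of it *Thy1*. Among the endothelial markers, 5 of 10 were in the table at a sum of 1.56 to 2.50 CPM in ASP shSCR and 3.13 to 5.67 CPM in ASP shDHPS, most of it *Tie1*, which was called higher (1.47).

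The targeted gene was examined first. *Dhps* (ENSMUSG00000060038) measured 18.7, 22.1, 20.2 and 16.7 CPM in ASP shSCR replicates 1 to 4, and 5.57, 5.46, 7.62 and 9.07 CPM in ASP shDHPS replicates 1 to 4. Every knockdown library lay under every control library, and the remaining transcript varied within the knockdown group from the lowest level in replicate 2 to the highest in replicate 4. The means of 19.4 ± 2.28 and 6.93 ± 1.74 CPM (SD, n = 4 each) gave a log2 fold change of -1.48 (SE 0.15; edgeR quasi-likelihood test, adjusted p = 8.31e-06), or 2.80-fold. Neither reference group had the low level, with 20.8 ± 1.87 CPM in ASP shGRIN2D and 20.8 ± 3.01 CPM in NoASP shSCR (SD, n = 3 each).

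*Dohh*, which encodes the second enzyme of hypusine formation, was higher in the knockdown. Its level was 49.1, 36.8, 47.6 and 40.8 CPM in the control libraries and 65.5, 59.9, 59.03 and 55.04 CPM in the knockdown libraries. The groups did not overlap, and the difference of 0.46 (SE 0.10) passed the threshold (edgeR, adjusted p = 0.0108). It stayed called without each library in turn, but not against NoASP shSCR (0.42, adjusted p = 0.0507). The call was also lost with ASP shSCR replicate 2 and ASP shDHPS replicate 1 both left out. The substrate mRNA *Eif5a* was at 937 to 1271 CPM in the control and 1287 to 1506 CPM in the knockdown libraries, a difference of 0.25 that was not called (adjusted p = 0.183). The paralog *Eif5a2* was at 11.3 to 13.5 and 13.2 to 17.02 CPM, with overlapping groups (0.29, adjusted p = 0.222).

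Polyamine genes were looked at because spermidine is the donor for hypusine. *Odc1*, the rate-limiting enzyme of polyamine synthesis, measured 563, 444, 541 and 503 CPM in ASP shSCR and 936, 806, 722 and 687 CPM in ASP shDHPS. All 4 knockdown libraries lay above the controls, and *Odc1* rose by 0.62 (SE 0.10; edgeR, adjusted p = 0.00111). *Paox*, which breaks down acetylated polyamines in the peroxisome, fell from 18.5 to 30.8 to 13.4 to 16.96 CPM (-0.64, adjusted p = 0.00813). Of 20 genes of polyamine synthesis and breakdown these were the 2 called. That was 10% of the list, beside 4.22% of all genes and 6.9% of genes of at least 5 CPM. The median difference of the list was -0.0028 beside 0.0046 over all genes tested. Not called was *Azin1*, an inhibitor of the protein that directs ornithine decarboxylase to degradation (0.40, adjusted p = 0.0512). Nor were *Amd1*, which supplies the aminopropyl groups (0.43, adjusted p = 0.0715), and the spermidine synthase *Srm* (0.32, adjusted p = 0.229). *Atp13a4*, a P-type ATPase of the family that carries polyamines across lysosomal and other membranes, was at 2.75, 2.34, 3.77 and 5.81 CPM in the control and 9.56, 7.93, 10.7 and 11.00 CPM in the knockdown libraries. It rose by 1.45 (SE 0.23; edgeR, adjusted p = 0.00111), while *Atp13a2* (-0.28, adjusted p = 0.268) and *Atp13a3* (0.04, adjusted p = 0.879) were not called.

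**Figure D1:**
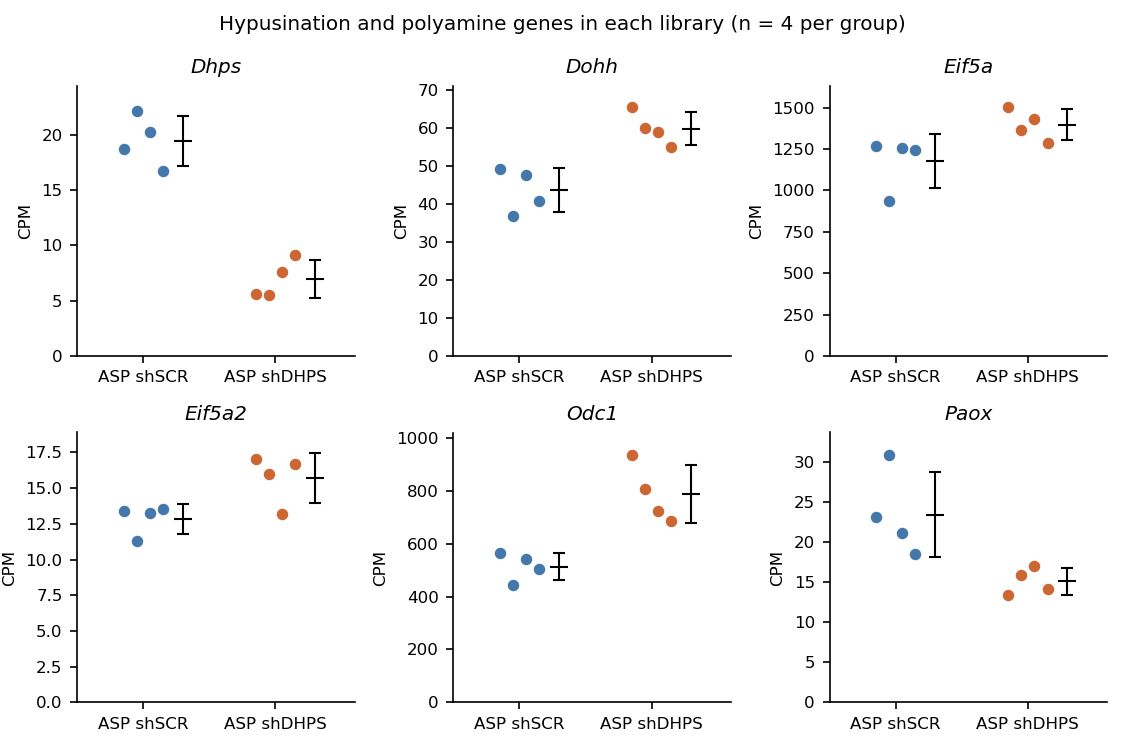
Levels (CPM, linear axis from 0) of *Dhps*, *Dohh*, *Eif5a*, *Eif5a2*, *Odc1* and *Paox* in each of the 4 ASP shSCR (blue) and 4 ASP shDHPS (orange) libraries, in the order of the replicate numbers; the black mark and bar are the mean and SD. The groups are separate for every gene shown except *Eif5a2*, and the difference passed the test for *Dhps*, *Dohh*, *Odc1* and *Paox*.

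Over the whole table, 824 of 19525 genes were called (4.22%), 322 higher (1.65%) and 502 lower (2.57%) in ASP shDHPS. At an unadjusted p under 0.05 (edgeR), 1758 genes were higher and 2011 lower, and unadjusted counts of the lists are to be read beside these. The changes were mostly small, since the median size was 0.49 for the rises and 0.58 for the falls on the log2 scale. At least 2-fold were 37 rises and 102 falls. Among the 10213 genes of at least 5 CPM, 6.9% were called, 2.8% higher and 4.1% lower. In 11.1% of all genes the groups were apart, with every library of one group above every library of the other. The count depended on single libraries: leaving out ASP shSCR replicate 2 gave 412 calls, 390 of them among the 824, and leaving out ASP shDHPS replicate 3 gave 450, of which 434 were shared. Genes called lower had long transcripts (median 4486 bases) and genes called higher short ones (2536), against 3466.5 bases for genes of at least 5 CPM. Relative to the mean of all 14 libraries, genes with the longest transcripts (top 20%) were shifted against those with the shortest (bottom 20%) by -0.37 and -0.32 (log2) in ASP shDHPS replicates 1 and 3 and by 0.25 in ASP shSCR replicate 2. After each library was corrected for length and GC content, 530 genes were called higher and 554 lower.

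**Figure D2:**
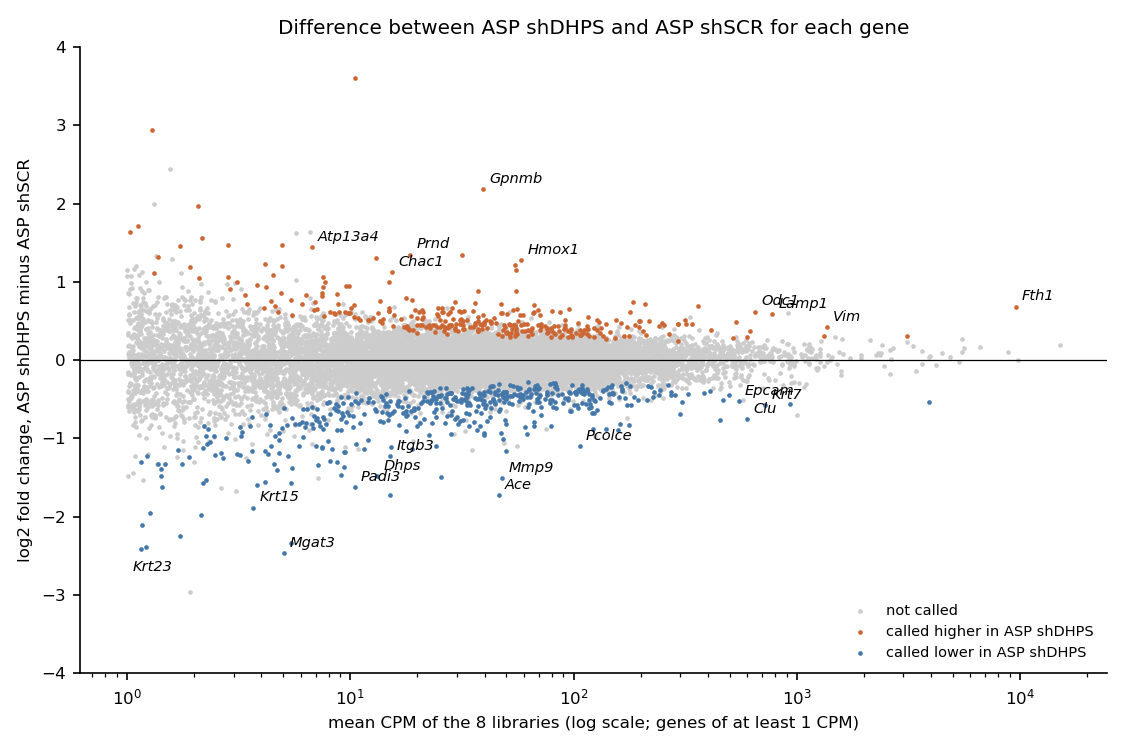
Difference between ASP shDHPS and ASP shSCR for each gene of at least 1 CPM (12037 genes; 2 more lie beyond the axis). The horizontal axis is the mean CPM of the 8 libraries on a log scale and the vertical axis the log2 fold change; orange and blue points were called higher and lower, and *Gpnmb* (2.19) and *Mgat3* (-2.47) stand among the largest changes of moderately expressed genes.

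The largest rise among genes of at least 5 CPM, apart from a gene model discussed last, was that of *Gpnmb*, a glycoprotein of lysosomes and melanosomes and a target of the MiT/TFE factors. *Gpnmb* measured 11.1, 16.4, 13.8 and 15.9 CPM in ASP shSCR and 51.9, 60.6, 73.4 and 72.98 CPM in ASP shDHPS. The lowest knockdown library held more than 3 times the CPM of the highest control, and the difference was 2.19 (SE 0.17; edgeR, adjusted p = 2.60e-07). It was called under every alternative, as was *Prnd*, which encodes the prion-like protein doppel, with 12.5, 7.35, 12.2 and 9.66 CPM in the control and 27.9, 22.6, 27.5 and 28.8 CPM in the knockdown (1.35, SE 0.18, adjusted p = 1.40e-04).

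*Atf3*, a transcription factor induced by many stresses, went from 6.73, 6.01, 9.46 and 7.78 to 18.7, 14.9, 22.4 and 18.3 CPM (1.31, adjusted p = 1.03e-04). *Chac1*, which degrades glutathione, went from 10.3, 11.03, 8.67 and 8.72 to 22.7, 18.99, 23.6 and 19.2 CPM (1.12, adjusted p = 6.40e-05). *Ccn1*, a matricellular protein and a target of YAP and TGF-β, went from 30.04, 28.4, 37.6 and 36.1 to 68.6, 71.8, 78.4 and 87.8 CPM (1.22, adjusted p = 1.24e-04). For these 3 genes no knockdown library reached down to a control library, and the calls held under every alternative. *Cst6*, a secreted inhibitor of legumain and cathepsins (1.15), *Msrb3*, a methionine sulfoxide reductase (0.99), and *Igfbp7*, a secreted growth factor binding protein (1.00), also rose, with adjusted p between 9.13e-05 and 0.00279. *Angptl4*, an inhibitor of lipoprotein lipase, rose by 1.34 (adjusted p = 0.0144) from 8.35 to 24.6 to 36.04 to 54.1 CPM. The lowest of those control values was ASP shSCR replicate 2, and the call was lost without ASP shDHPS replicate 3. *Nipal4*, *Sbsn* and the noncoding RNA *Lncenc1* rose by 1.23, 1.06 and 1.09 at levels under 15 CPM. *Derpc* had the highest fold change of the rule (3.60; edgeR, adjusted p = 0.00186). With 12.4, 5.46, 48.9 and 10.8 CPM in the knockdown libraries, the size of its rise leans on replicate 3. It stayed called without each library in turn, at 2.58 to 3.95, but not with a robust prior. Its gene overlaps *Chtf8*, so that reads may be divided between them.

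Genes of the lysosome were called higher more often than lower. Lists and their members were chosen with earlier results of these data known, which can raise the share of a list. Of 41 listed MiT/TFE target genes in the table, 39 of them of at least 5 CPM, 12 were called higher (29.3%) and none lower by edgeR. Over all genes these shares were 1.65% and 2.57%, and over genes of at least 5 CPM 2.8% and 4.1%. At an unadjusted p under 0.05, 24 of the list were higher and 2 lower, beside 1758 and 2011 of 19525 over all genes. DESeq2 called 17 of the list higher and 1 lower. The median difference of the list was 0.23 beside 0.0046 over all genes tested. The summed level of the list was 4826 to 5211 CPM in ASP shSCR and 5833 to 6699 CPM in ASP shDHPS, without overlap. Of 112 genes of the KEGG lysosome set, 19 were called higher and 1 lower by edgeR, with a median of 0.099, and 30 and 2 by DESeq2, while 38 were higher and 6 lower at an unadjusted p under 0.05. The MiT/TFE list and the KEGG set shared 20 genes, and 23 of the 133 genes on either were called higher. With ASP shSCR replicate 2 left out, 12 of the list and 18 of the set were called higher, with ASP shDHPS replicate 3 left out 8 and 10, and 16 and 26 after the correction for length and GC content.

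The membrane protein *Lamp1*, which covers much of the inner face of the lysosome, measured 634, 582, 633 and 636 CPM in ASP shSCR and 984, 911, 953 and 894 CPM in ASP shDHPS. Its control and knockdown libraries were far apart for their small spread, and it rose by 0.59 (SE 0.07; edgeR, adjusted p = 9.13e-05). *Lgmn*, the protease legumain, was at 25.7, 25.2, 24.99 and 26.00 CPM in the control and 39.7, 37.9, 40.99 and 39.02 CPM in the knockdown libraries (0.63, adjusted p = 4.65e-04). *Neu1*, the lysosomal sialidase, went from 15.4, 19.3, 15.9 and 14.9 to 21.8, 24.8, 29.6 and 26.6 CPM (0.65, adjusted p = 0.0028). The rises thus took in a structural protein, a protease and a glycosidase. Further hydrolases rose by less, among them *Gla* (0.54), *Hexa* (0.51), *Scpep1* (0.45), *Ctsz* (0.44), *Ctsa* (0.40), *Ctsb* (0.38), *Ppt1* (0.35) and *Ctsl* (0.31), as did *Psap*, the precursor of the saposin activators (0.30). Their adjusted p lay between 0.00343 and 0.0446 (edgeR), and the calls of *Gla*, *Ppt1*, *Psap* and *Ctsl* were lost without any of 4, 4, 6 and 7 of the 8 libraries.

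Among genes of the proton pump that acidifies lysosomes, *Atp6v0b* (0.65, adjusted p = 0.00185), *Atp6v1b2* (0.39, adjusted p = 0.0053) and the accessory subunit *Atp6ap2* (0.61, adjusted p = 5.68e-04) were called higher. *Atp6ap2* measured 66.3, 68.8, 73.6 and 65.8 CPM in ASP shSCR and 111, 93.3, 108 and 107 CPM in ASP shDHPS, with the groups apart. Not called were *Atp6ap1* (0.28), *Atp6v1h* (0.30) and *Atp6v1a* (0.20), with adjusted p of 0.0522, 0.0849 and 0.207. *Plin2*, which coats lipid droplets and is on the MiT/TFE list, rose from 203 to 331 to 369 to 515 CPM (0.70, adjusted p = 0.00908). The single KEGG lysosome gene called lower by edgeR was *Ap1m2*, a clathrin adaptor subunit of epithelial cells (-0.89, adjusted p = 0.0014).

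None of the factors themselves was called higher. *Tfeb* was at 12.2 ± 0.439 CPM in ASP shSCR and 11.1 ± 2.83 CPM in ASP shDHPS (SD, n = 4 each), a difference of -0.14 (edgeR, adjusted p = 0.673). *Tfe3* was at 80.4 ± 1.93 and 76.6 ± 4.77 CPM (-0.07, adjusted p = 0.674). *Mitf* was lower, at 18.6 to 20.5 against 23.1 to 28.96 CPM (-0.41, adjusted p = 0.0354), a call lost without any of 7 of the 8 libraries. Of 41 genes of the autophagy machinery, 2 were called higher, *Becn1* (0.32) and *Gabarapl1* (0.33), and none lower by edgeR. That was 4.88% of the list, beside 4.22% of all genes and 6.9% of genes of at least 5 CPM, and is no result about the list. DESeq2 called 2 higher and 1 lower, and at an unadjusted p under 0.05 (edgeR) 8 were higher and 5 lower. Both edgeR calls were lost without ASP shSCR replicate 2. *Sqstm1*, an autophagy receptor, was at 887 ± 100 and 938 ± 161 CPM (0.08, adjusted p = 0.721).

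**Figure D3:**
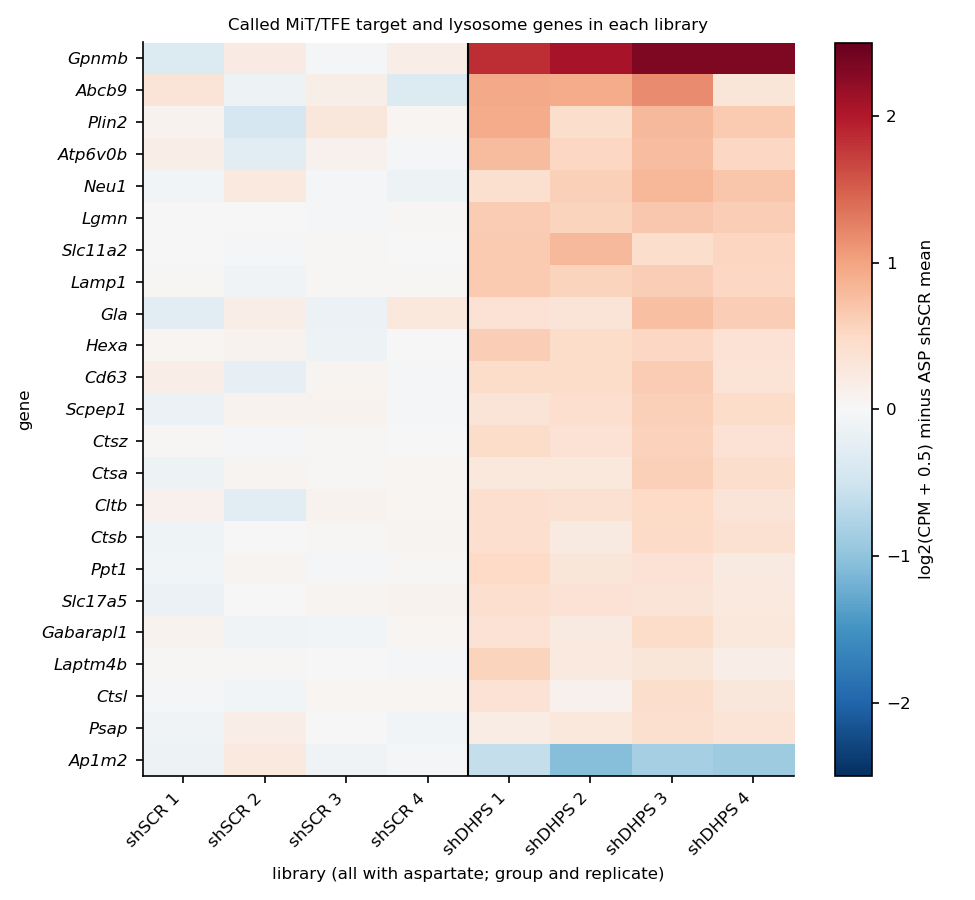
Called genes of the MiT/TFE target list and the KEGG lysosome set, apart from 1 called higher that is not drawn (rows, ordered by fold change) in the 8 libraries (columns). Colour is log2(CPM + 0.5) minus the mean of the 4 ASP shSCR libraries; 22 of the genes drawn are higher in the ASP shDHPS libraries, with *Gpnmb* the furthest, and *Ap1m2* is lower.

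MiT/TFE factors bind the sequence CACGTG, most often as TCACGTG. RefSeq promoters (GRCm38.p6, 250 bases before to 50 after a start, a build that differs from that of the counts) were given for 12116 of the 19525 genes. CACGTG, searched on both strands, was in a promoter of 10.9% of these genes, of 16.1% of the 242 called higher and of 8.31% of the 361 called lower. The longer TCACGTG, each match of which holds the shorter word, was in 6.30%, 11.2% and 4.99%. Among 34 MiT/TFE target genes with a promoter, 16 held TCACGTG, but the list was drawn up from genes known for such sites. Of its 10 members called higher that had a promoter, 4 held it, or 40.0% beside 47.1% of the whole list. These 4 are shown as the members that both held the word and were called higher, with CACGTG and the T before it or the A after it, where present, in capitals. The other words searched on both strands were TGACGTCA, TGANTCA, the interferon-stimulated response element and CCAAT, which were in 5.79%, 9.50%, 4.96% and 43.8% of the promoters of genes called higher, in 1.94%, 10.5%, 3.60% and 42.7% of those called lower, and in 3.34%, 7.35%, 3.73% and 43.1% of all.
*Lamp1*, chr8:13158911-13159210, plus strand: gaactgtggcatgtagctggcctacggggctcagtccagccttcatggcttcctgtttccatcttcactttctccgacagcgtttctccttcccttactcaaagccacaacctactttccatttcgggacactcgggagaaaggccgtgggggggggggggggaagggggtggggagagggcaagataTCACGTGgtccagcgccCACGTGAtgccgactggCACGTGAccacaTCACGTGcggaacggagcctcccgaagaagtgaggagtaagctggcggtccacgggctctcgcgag
*Ctsa*, chr2:164833523-164833822, plus strand: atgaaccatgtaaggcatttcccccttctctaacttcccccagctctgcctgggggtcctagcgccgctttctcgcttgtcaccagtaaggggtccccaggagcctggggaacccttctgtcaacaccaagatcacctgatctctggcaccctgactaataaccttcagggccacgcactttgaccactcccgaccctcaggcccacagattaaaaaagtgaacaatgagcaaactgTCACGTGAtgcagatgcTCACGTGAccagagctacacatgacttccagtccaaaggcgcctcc
*Gla*, chrX:134600956-134601255, minus strand: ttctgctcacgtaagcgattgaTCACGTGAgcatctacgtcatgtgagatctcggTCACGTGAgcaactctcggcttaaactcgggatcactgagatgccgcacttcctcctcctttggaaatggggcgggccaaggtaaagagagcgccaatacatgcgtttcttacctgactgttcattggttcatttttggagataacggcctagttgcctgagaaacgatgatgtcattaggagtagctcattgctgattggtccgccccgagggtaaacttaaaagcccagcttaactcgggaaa
*Plin2*, chr4:86670010-86670309, minus strand: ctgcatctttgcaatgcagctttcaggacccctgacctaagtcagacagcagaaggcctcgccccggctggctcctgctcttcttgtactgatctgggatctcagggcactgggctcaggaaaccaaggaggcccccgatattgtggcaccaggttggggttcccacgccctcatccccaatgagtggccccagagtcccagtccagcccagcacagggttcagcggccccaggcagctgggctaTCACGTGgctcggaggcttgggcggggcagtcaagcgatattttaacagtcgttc
The *Lamp1* promoter held CACGTG 4 times within the 61 bases before the start, and those of *Ctsa* and *Gla* held it 2 times each. A match is a run of letters and was not tested for binding.

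Iron handling and the antioxidant response were examined next. Of 22 iron genes, 5 were called higher and 1 lower, beside 1.65% and 2.57% over all genes, with a median difference of 0.066. *Fth1*, the heavy chain of the iron store ferritin, measured 7746, 6078, 7487 and 8058 CPM in ASP shSCR and 11844, 11466, 12665 and 11214 CPM in ASP shDHPS. It was the most abundant of the named genes, every knockdown library exceeded every control library, and it rose by 0.68 (SE 0.10; edgeR, adjusted p = 3.63e-04). *Hmox1*, which releases iron from heme, went from 29.3, 29.7, 45.2 and 31.7 to 75.8, 56.5, 107 and 90.5 CPM (1.28, SE 0.19, adjusted p = 5.14e-04). *Slc11a2*, the iron importer DMT1 (0.63), the endosomal reductase *Steap3* (0.50) and *Tfrc*, the transferrin receptor (0.48), rose with adjusted p of 0.00186, 0.00537 and 0.0288, and *Steap2* fell (-0.44, adjusted p = 0.0336). The call of *Tfrc* was lost without any of 5 of the 8 libraries and that of *Steap2* without any of 4, and without ASP shSCR replicate 2 the list held 4 calls, all higher.

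Of 35 glutathione, thioredoxin and NRF2 genes, 4 were called higher and 2 lower (median 0.15). Over all genes 1.65% were called higher and 2.57% lower, and 2.8% and 4.1% of genes of at least 5 CPM. *Gclm*, a subunit of the enzyme that starts glutathione synthesis (0.61), *Nqo1*, a quinone reductase (0.46), and *Prdx6*, a peroxiredoxin (0.46), were higher beside *Hmox1*, at adjusted p of 0.0177, 0.00638 and 0.0114. *Gsta3*, a glutathione transferase, fell from 5.86, 8.85, 7.11 and 10.8 to 2.00, 1.60, 3.73 and 3.42 CPM (-1.57, adjusted p = 9.18e-04). *Gpx2*, a glutathione peroxidase, was under 2 CPM in every library and fell by -1.30 (adjusted p = 0.0207). The call of *Gclm* was lost without ASP shSCR replicate 2 and that of *Gpx2* without any of 4 libraries.

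Of 32 genes of the ATF4 integrated stress response, 4 were called higher and 1 lower (median 0.16), beside 1.65% and 2.57% over all genes. Besides *Atf3* and *Chac1*, the transcription factor *Ddit3* (0.76, adjusted p = 0.0217) and the amino acid transporter subunit *Slc3a2* (0.31, adjusted p = 0.042) rose. *Cth*, which makes cysteine, fell from 7.74 to 11.03 to 3.67 to 6.51 CPM (-0.88, adjusted p = 0.00837). The amino acid synthesis genes on the list were not called, among them *Asns* (0.36, adjusted p = 0.0702), *Psat1* (0.19) and *Phgdh* (0.17), nor was *Atf4* itself (0.23, adjusted p = 0.182). The call of *Ddit3* was lost without any of 3 libraries and that of *Slc3a2* without any of 5, and without ASP shDHPS replicate 3, 2 of the list were called higher. Of 23 genes of the unfolded protein response of the endoplasmic reticulum, none was called by edgeR or DESeq2, and at an unadjusted p under 0.05 1 was higher and 2 lower (median 0.065).

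Among the falls of at least 5 CPM, *Mgat3* was the largest. It encodes the enzyme that adds the bisecting sugar to N-linked glycans, and it measured 8.13, 13.1, 5.39 and 7.38 CPM in ASP shSCR and 1.16, 2.20, 1.30 and 1.55 CPM in ASP shDHPS. The highest knockdown library stood below the lowest control, and the difference was -2.47 (SE 0.30; edgeR, adjusted p = 7.65e-05). Of 18 genes of N-glycan branching, 3 were called lower and 1 higher, beside 2.57% and 1.65% over all genes, with a median difference of -0.027. Besides *Mgat3*, *Man2a1* (-0.38) and *St6gal1* (-0.36) were lower, and *St3gal4* was higher (0.43). *Man2a1* and *St6gal1* were no longer called without ASP shSCR replicate 2.

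*Ace*, the angiotensin-converting enzyme, was at 68.3, 101, 60.9 and 53.8 CPM in the control and 14.9, 22.8, 24.1 and 24.2 CPM in the knockdown libraries (-1.72, SE 0.20; edgeR, adjusted p = 5.52e-05). *Notch3*, a Notch receptor, went from 17.1, 35.9, 19.99 and 19.7 to 5.09, 9.53, 5.67 and 7.95 CPM (-1.72, adjusted p = 5.14e-04). *Padi3*, which converts arginine of proteins to citrulline, went from 19.8, 17.1, 13.4 and 12.7 to 4.67, 6.13, 4.38 and 5.39 CPM (-1.62, adjusted p = 8.31e-06). ASP shSCR replicate 2 was the highest control for *Ace* and *Notch3*, and without it the calls of all 3 genes held. *Pgap1*, which remodels GPI anchors (-1.49), *Ptpru*, a receptor tyrosine phosphatase (-1.41), *Shisa2* (-1.38) and *Camk2n1*, an inhibitor of the kinase CaMKII (-1.55), also fell, and each call held without any single library. In contrast, *Ankrd37* (-2.33), the actin bundler *Espn* (-1.36) and *Bahcc1* (-1.46) lost their call without ASP shSCR replicate 2, and also without ASP shDHPS replicate 1 or 3. *Ankrd37* measured 3.85, 26.3, 3.38 and 2.75 CPM in ASP shSCR and 1.89, 2.13, 1.67 and 1.55 CPM in ASP shDHPS, so that ASP shSCR replicate 2 stood far above the rest.

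Among abundant genes (at least 100 CPM), the largest fall was that of *Pcolce*, described with the matrix genes. *Sesn3*, a stress-induced sestrin (-0.89), *Chd3*, a remodeler of the NuRD complex (-0.88), the clock repressor *Bhlhe41* (-0.84), the chemokine *Cx3cl1* (-0.83), the kinase *Jak2* (-0.81), *Amotl1*, a junction protein that binds YAP (-0.76), and the secreted chaperone *Clu* (-0.75) followed, with adjusted p between 1.77e-04 and 0.00863 (edgeR). *Clu* measured 710, 907, 672 and 729 CPM in ASP shSCR and 463, 418, 481 and 427 CPM in ASP shDHPS, with the groups apart. Of the abundant rises not yet named, *Prl2c3* of the proliferin family rose by 0.74, the AP-1 subunit *Fosl1* by 0.72 and the small heat shock protein *Hspb8* by 0.56. The proliferin genes are near-identical copies, so the count of *Prl2c3* is uncertain, and *Fosl1* was not called without ASP shSCR replicate 2.

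Among keratins and other epithelial genes, more were called lower than higher. In bulk RNA, fewer cells of a kind and less RNA per cell cannot be told apart. Of 22 keratins in the table, 6 were called lower (27.3%, beside 2.57% of all genes) and none higher by edgeR. DESeq2 called 7 lower and none higher, and at an unadjusted p under 0.05 (edgeR) 10 were lower and 1 higher. The median difference of the keratins was -0.56. This list too was chosen with earlier results of these data known, which can raise its share. The summed keratin level was 3969 to 4164 CPM in ASP shSCR and 2978 to 3600 CPM in ASP shDHPS. *Krt7*, a keratin of simple and glandular epithelia, measured 927, 824, 868 and 829 CPM in the control and 642, 531, 605 and 541 CPM in the knockdown libraries (-0.57, SE 0.08; edgeR, adjusted p = 3.13e-04). *Krt19*, of the same kind, went from 152, 200, 141 and 143 to 87.8, 87.2, 89.4 and 81.2 CPM (-0.88, adjusted p = 7.72e-05). The basal keratin *Krt14* went from 82.8, 73.95, 87.2 and 89.7 to 59.8, 54.4, 61.5 and 53.9 CPM (-0.54, adjusted p = 0.00186). In these 3 keratins the knockdown libraries were all lower than the controls. *Krt15* fell by -1.88 (5.51, 7.41, 5.29 and 4.87 to 1.84, 1.27, 1.73 and 1.39 CPM, adjusted p = 4.86e-05), and *Krt13* (-1.22) and *Krt23* (-2.77) fell at low levels, *Krt23* to at most 0.378 CPM. The 2 most abundant keratins, *Krt8* (-0.19, adjusted p = 0.203) and *Krt18* (-0.31, adjusted p = 0.06), were not called. The count was 6 with ASP shSCR replicate 2 left out, 6 with ASP shDHPS replicate 3 left out and 7 after the length correction, and the median transcript length of the keratins was 1684.5 bases.

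Of 27 epithelial genes, 9 were called lower and 1 higher (median -0.19), beside 2.57% and 1.65% over all genes. *Epcam*, an adhesion protein of epithelial cells, measured 645, 687, 612 and 650 CPM in ASP shSCR and 512, 427, 448 and 418 CPM in ASP shDHPS. The groups were apart and it fell by -0.52 (SE 0.08; edgeR, adjusted p = 7.79e-04). The splicing factor of epithelia *Esrp1* (-0.45) and the desmosomal cadherin *Dsg2* (-0.55) fell too, with *Krt7* and *Krt19* counted above. The junction proteins *Jup* (-0.45), *Tjp1* (-0.42) and *Pkp3* (-0.31) and the transcription factor *Grhl2* (-0.32) were called lower with all libraries, but not without ASP shSCR replicate 2, which left 5 epithelial genes lower. The claudin *Cldn3* was higher (0.40, adjusted p = 0.0179), also not without that library. *Cdh1*, E-cadherin, was at 442 ± 45.3 and 453 ± 42.6 CPM (0.04, adjusted p = 0.873). Of 14 mesenchymal genes, *Vim* rose from 1135, 1192, 1138 and 1201 to 1626, 1359, 1700 and 1583 CPM (0.43, adjusted p = 0.0053), and *Tcf4* fell (-0.48, adjusted p = 0.0449), a call lost without any of 6 libraries. *Fn1*, fibronectin, was at 811 to 1562 CPM in ASP shSCR and 403 to 1053 CPM in ASP shDHPS and was not called (-0.70, adjusted p = 0.0819).

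**Figure D4:**
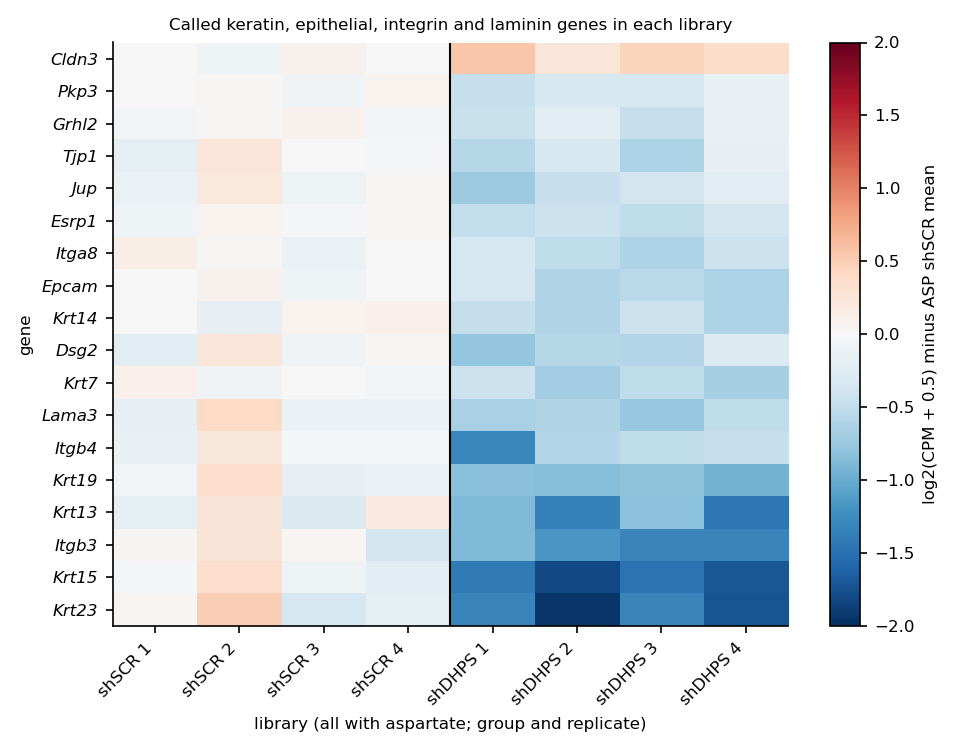
Called keratin, epithelial, integrin and laminin genes (rows, ordered by fold change) in the 8 libraries (columns). Colour is log2(CPM + 0.5) minus the mean of the 4 ASP shSCR libraries; every gene but *Cldn3* is lower in the ASP shDHPS libraries, and ASP shSCR replicate 2 is the highest control for most of the strongest falls.

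Integrins, laminins and matrix genes were next examined. Of 27 integrins and laminins, 4 were called lower and none higher by edgeR (median -0.21). DESeq2 called 8 of them lower and none higher, and at an unadjusted p under 0.05 (edgeR) 12 were lower and 1 higher. Over all genes 2.57% were called lower and 1.65% higher by edgeR. *Itgb3*, the β3 integrin, measured 21.7, 25.2, 21.6 and 16.1 CPM in ASP shSCR and 11.1, 9.06, 8.10 and 8.06 CPM in ASP shDHPS, and fell by -1.22 (SE 0.15; edgeR, adjusted p = 6.40e-05). *Itgb4*, the integrin of hemidesmosomes, went from 333, 433, 361 and 359 to 150, 245, 259 and 267 CPM (-0.69, adjusted p = 0.0066). Its ligand chain *Lama3* of laminin-332 fell by -0.65 (adjusted p = 0.00427), and *Itga8* fell by -0.49 (adjusted p = 0.0118). The transcripts of this list were long (median 5629 bases), and after the length and GC correction 4 were still called lower.

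Collagen and TGF-β genes were of interest because the study followed them downstream of hypusination. Of 30 collagen chains, *Col7a1* alone was called, lower (-0.79, adjusted p = 0.0174), with 37.1, 58.02, 43.9 and 41.8 CPM in the control and 15.5, 29.05, 30.2 and 29.7 CPM in the knockdown libraries. That call was lost without ASP shSCR replicate 2, and no chain was called higher by edgeR or DESeq2. At an unadjusted p under 0.05 (edgeR), 1 chain was higher and 6 were lower. The median of the collagens was -0.078, and the 1 call is 3.33% of the list, beside 4.22% of all genes. The 9 chains of at least 5 CPM had a median of -0.22, beside -0.0034 for all genes of at least 5 CPM. *Col1a1*, a chain of type I collagen, was at a low level, 0.147 to 1.06 CPM in ASP shSCR and 0.133 to 0.432 CPM in ASP shDHPS (-1.33, adjusted p = 0.256), and was not called. *Col6a1* was at 46.6 ± 1.67 and 52.96 ± 13.5 CPM (0.18, adjusted p = 0.463), and *Col4a1* of the basement membrane at 596 ± 108 and 524 ± 173 CPM (-0.19, adjusted p = 0.623). *Pcolce*, which speeds the removal of the C-terminal propeptide of procollagen, measured 149, 167, 129 and 136 CPM in ASP shSCR and 60.6, 74.5, 67.02 and 69.5 CPM in ASP shDHPS. It fell by -1.10 (SE 0.09; edgeR, adjusted p = 7.53e-07) and was called under every alternative. The prolyl hydroxylation complex genes *P3h1* (0.61), *Ppib* (0.38) and *Crtap* (0.29) were called higher, and none of these calls held without ASP shSCR replicate 2.

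Of 23 TGF-β ligands, receptors and Smads, none was called by edgeR, although 2 were higher and 6 lower at an unadjusted p under 0.05 and DESeq2 called 1 higher and 1 lower. The median was -0.16. *Tgfb1* was at 145 ± 6.18 and 138 ± 37.5 CPM (-0.08, adjusted p = 0.821), and *Smad3* at 278 ± 50.8 and 209 ± 26.5 CPM (-0.41, adjusted p = 0.0577). Of 36 TGF-β response genes, 4 were called higher and 2 lower (median -0.077), beside 1.65% and 2.57% over all genes. The higher ones were *Ccn1*, *Angptl4* and *Hmox1*, given above, and *Plaur*, the urokinase receptor (0.50, adjusted p = 0.00805). The lower ones were *Pmepa1*, a feedback inhibitor of TGF-β signaling (152, 168, 128 and 161 to 91.5, 106, 85.1 and 97.8 CPM, -0.68, adjusted p = 0.0014), and *Mmp9*, the gelatinase B. *Mmp9* measured 56.1, 110, 55.9 and 61.4 CPM in the control and 21.96, 22.3, 27.4 and 27.9 CPM in the knockdown libraries (-1.51, SE 0.19, adjusted p = 9.13e-05). Its highest value was in ASP shSCR replicate 2, yet the other 3 controls also lay above every knockdown library. *Ccn2* (0.67, adjusted p = 0.0722) and *Smad7* (-0.24, adjusted p = 0.392) were not called. Of 31 matrix proteases and inhibitors, 3 were called higher (*Plaur*, *Ctsb*, *Ctsl*) and 2 lower, *Mmp9* and the urokinase *Plau* (-0.32, adjusted p = 0.0232). The shares over all genes were again 1.65% and 2.57%. The call of *Ctsl* was lost without any of 7 of the 8 libraries and that of *Plau* without any of 4, and without ASP shSCR replicate 2, 2 of the list were called higher and 1 lower.

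Guidance cues and cytokines held further single changes. Of 57 guidance ligands and receptors, 7 were called lower and 2 higher (median -0.17), beside 2.57% and 1.65% over all genes, with a median transcript length of 5095 bases, and without ASP shSCR replicate 2 2 were lower and none higher. These 2 were *Epha1*, an ephrin receptor (-0.67, adjusted p = 0.00354), and *Plxnb1*, a semaphorin receptor (-0.65, adjusted p = 0.00509), both of which held without each library in turn (edgeR). *Ephb6*, *Plxna3*, *Sema3a*, *Sema3b* and *Robo1* fell by -1.07, -0.55, -0.97, -0.51 and -0.79, and *Plxna4* and *Sema7a* rose by 0.72 and 0.42. Of 33 neutrophil-attracting cytokines and NF-κB targets, 3 were called higher and none lower by edgeR or DESeq2. At an unadjusted p under 0.05 (edgeR), 5 of this list were higher and 2 lower. The membrane-bound chemokine *Cxcl16* measured 45.6, 59.6, 51.1 and 53.02 CPM in ASP shSCR and 83.5, 78.1, 81.7 and 78.5 CPM in ASP shDHPS (0.62, adjusted p = 0.00118). The cytokine *Il1a* rose by 0.50 (adjusted p = 0.014), with one control library, replicate 2, inside the range of the knockdown, and the chemokine *Cxcl10* rose by 1.19 at under 3 CPM. Without ASP shSCR replicate 2, 6 genes of this list were called higher. Of 30 interferon response genes, *Oasl1* (0.94) and *Bst2* (0.44) were called higher and none lower by edgeR or DESeq2. At an unadjusted p under 0.05 (edgeR), 4 of these 30 were higher and 1 lower. The call of *Bst2* was lost without any of 6 libraries.

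Few single genes of the translation machinery were called, beside 1.65% higher and 2.57% lower over all genes. Positive differences, called or not, were seen in 68 of 83 cytosolic and 66 of 78 mitochondrial ribosomal protein genes, beside 9873 of 19525 over all genes. Of 83 cytosolic ribosomal protein genes, none was called by edgeR or DESeq2, while 7 were higher and none lower at an unadjusted p under 0.05 (median 0.066). Of 78 mitochondrial ribosomal protein genes, *Mrpl16* was called higher by edgeR (0.45), 3 were by DESeq2 and none was called lower by either tool, 27 were higher and none lower at an unadjusted p under 0.05, and the median was 0.19. Of 62 translation factors, *Eif1ad* (0.60) and *Eif6*, which keeps the large ribosomal subunit apart from the small one (0.39), were higher (median 0.086). Of 117 genes of oxidative phosphorylation, 2 were called higher, *Atp6v0b* and *Atp6v1b2* of the lysosomal pump, and none lower by edgeR. DESeq2 called 10 higher and none lower, 8 were called higher after the length and GC correction and 7 against NoASP shSCR, with 33 higher and none lower at an unadjusted p under 0.05 (median 0.11). The calls of *Mrpl16* and *Eif6* were lost without any of 3 and 5 libraries. None of the 13 genes encoded by mitochondrial DNA was called by edgeR or DESeq2 (1 higher at an unadjusted p under 0.05). Among 37 proteasome subunits, *Psmd8* (0.48), *Psmb6* (0.35) and *Psmb3* (0.35) were higher, and *Psmd8* alone was so without ASP shSCR replicate 2. Ribosomal and mitochondrial transcripts are short (medians of 1059 bases for cytosolic and 1866.5 bases for mitochondrial ribosomal proteins).

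Metabolic and stress lists held 1 or 2 calls each. That was 4% to 7.41% of a list, beside 4.22% of all genes and 6.9% of genes of at least 5 CPM. The single calls are thus no result about their lists. *Idh1*, the cytosolic isocitrate dehydrogenase, fell from 151, 171, 138 and 160 to 115, 101, 88.4 and 93.9 CPM (-0.64, adjusted p = 0.00139) as the single call among 25 genes listed with the tricarboxylic acid cycle. *Aldoc* among 19 glycolytic genes (-1.14, adjusted p = 0.0439) and *Insig1* among 24 cholesterol genes (-0.43, adjusted p = 0.0451) were called lower, and neither without ASP shSCR replicate 2. Of 27 hypoxia genes, *Hilpda* was higher (0.63) and *Ankrd37* lower, again not without that library. At an unadjusted p under 0.05 (edgeR), 1 hypoxia gene was higher and 9 lower, beside 1758 and 2011 of 19525 over all genes. *Iars*, the isoleucyl-tRNA synthetase (-0.31), was the single call among 23 synthetases, and *Plk2* (0.89) among 24 p53 target genes. The call of *Iars* was lost without any of 4 libraries. The small heat shock proteins *Hspb8* and *Cryab* (0.67) were the 2 called of 34 chaperones. The median differences were 0.084 (tricarboxylic acid cycle), -0.16 (glycolytic), -0.15 (cholesterol), -0.28 (hypoxia), 0.15 (synthetases), 0.13 (p53 targets) and 0.14 (chaperones).

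**Figure D5:**
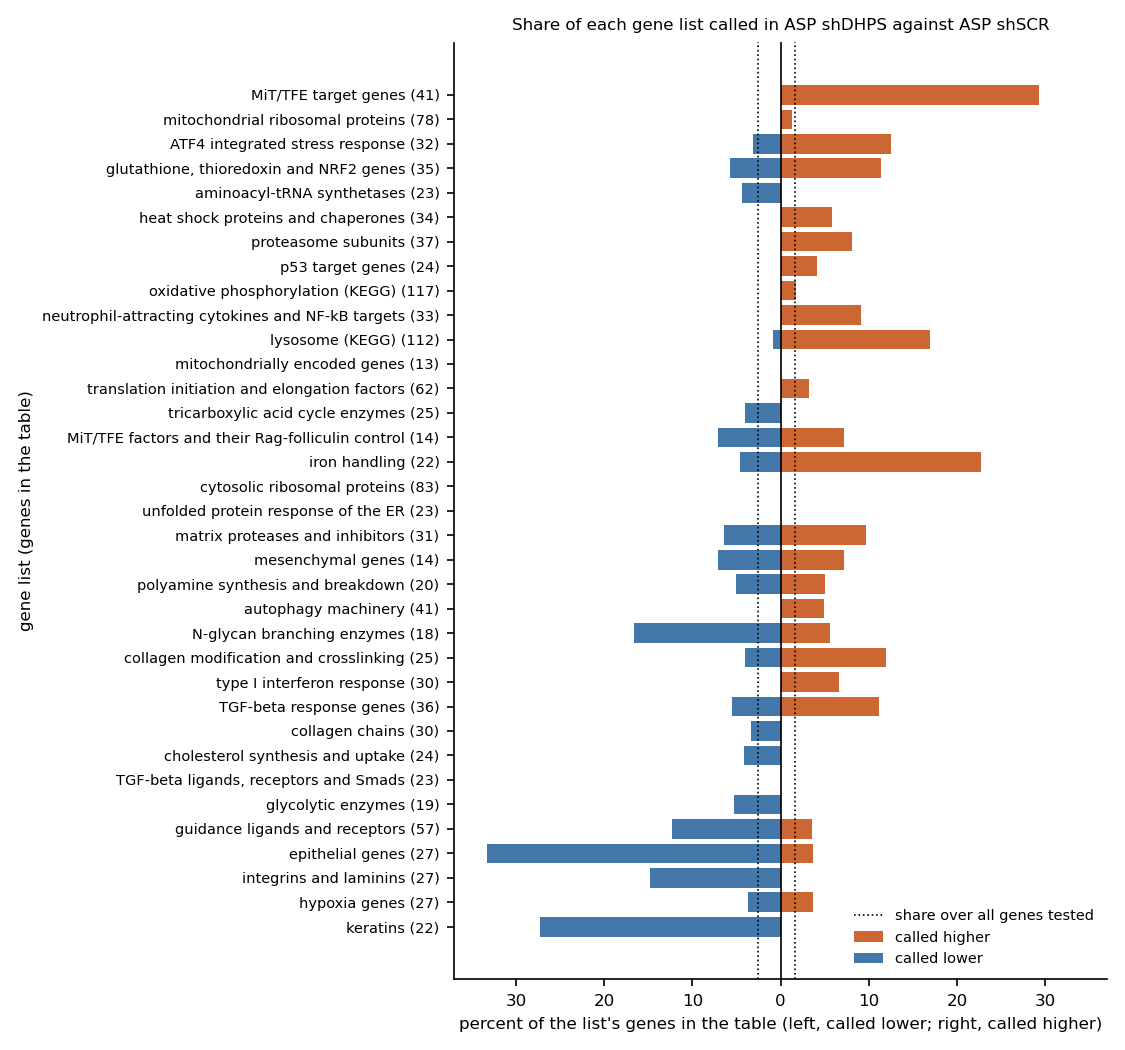
Share of gene lists called higher (orange, right) or lower (blue, left) in ASP shDHPS against ASP shSCR, as percent of the genes in the table (number in brackets), ordered by the median difference; marker lists of other cell types and 3 lists of at most 4 genes are not drawn. Dotted lines mark 1.65% and 2.57%, the shares over all genes. The MiT/TFE target genes reach 29.3% higher at the top of the lists drawn and the keratins 27.3% lower at the bottom. The lists were chosen with earlier results of these data known, which can raise their shares.

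Differences from the other targeting hairpin were tested directly, since ASP shGRIN2D also carried a targeting hairpin and aspartate. In this contrast 550 genes were called (2.82%). Of the 140 called genes named here, 44 also differed from ASP shGRIN2D. These genes were chosen by the same knockdown libraries that enter this contrast. Their count and their shared directions are raised by that choice and cannot be set against the 2.82%. *Gpnmb* was higher by 1.03 (edgeR, adjusted p = 0.00171), *Atp13a4* by 1.59 (adjusted p = 0.00105), *Prnd* by 1.85 (adjusted p = 9.29e-06), *Chac1* by 1.13 (adjusted p = 8.88e-05) and *Odc1* by 0.54 (adjusted p = 0.00671). Mean *Gpnmb* was 31.7 ± 4.11 CPM in ASP shGRIN2D against 14.3 ± 2.45 CPM in ASP shSCR, and mean *Hmox1* 52.3 ± 5.12 against 34.0 ± 7.56 CPM (SD). The ASP shGRIN2D mean was instead below that of ASP shSCR for *Atp13a4* (3.27 ± 0.576 against 3.67 ± 1.55 CPM) and *Prnd* (7.44 ± 2.10 against 10.4 ± 2.43 CPM). Lower than in ASP shGRIN2D were *Ace* (-1.95, adjusted p = 9.29e-06), *Mgat3* (-1.97, adjusted p = 0.00101), *Itgb3* (-1.92, adjusted p = 4.89e-07) and *Pcolce* (-0.80, adjusted p = 4.12e-05). Of the 12 MiT/TFE target genes called against the control, 1 (*Gpnmb*) passed this test, all 12 being higher than in ASP shGRIN2D by point estimate. *Lamp1* differed by 0.26 (SE 0.08, adjusted p = 0.0971) and *Fth1* by 0.21 (SE 0.11, adjusted p = 0.367). Of the 6 keratins, 2 passed, *Krt14* (-0.58, adjusted p = 0.00139) and *Krt19* (-0.43, adjusted p = 0.0457), while *Krt7* differed by 0.07 (SE 0.09, adjusted p = 0.749) and *Mmp9* by -0.32 (SE 0.21, adjusted p = 0.489). For the genes that did not pass, a difference between the hairpins was not shown, and their equality was not shown either.

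Against NoASP shSCR, which carries the control hairpin but differs from ASP shDHPS also in aspartate, 354 genes were called (1.81%). This contrast uses the same knockdown libraries. *Dhps* differed by -1.58 (edgeR, adjusted p = 1.63e-05), *Gpnmb* by 1.71 (adjusted p = 3.27e-05), *Lamp1* by 0.53 (adjusted p = 0.0013), *Fth1* by 0.69 (adjusted p = 0.00161), *Pcolce* by -1.08 (adjusted p = 5.85e-06) and *Krt7* by -0.53 (adjusted p = 0.00228). Of the MiT/TFE target genes 8 were called higher and of the keratins 6 lower in this contrast.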

How the data were processed

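Gene counts were made by the authors: reads were trimmed with Trim Galore 0.6.6 and mapped to GRCm39 with STAR 2.6.1, genes were quantified with Salmon 1.4.0, and the estimated counts were deposited as whole numbers for 19525 genes in 14 libraries (versions from the submitters' processing notes). Salmon divides reads between near-identical or overlapping genes by estimation. The deposited tables of the authors' own comparison (fold changes, p-values, q-values and gene set scores for aspartate) were not used. Counts were tested with edgeR 4.0.16 (R 4.3.3, TMM factors, quasi-likelihood fit of the group over all 14 libraries, Benjamini-Hochberg adjustment over all genes). The SE is the log2 fold change divided by the square root of F. Spheroid pellets of a group were independent per the study's methods. Lists were described by counts of called members and medians, with no set test. Members and lists were chosen with earlier results of these data known. Named genes were the 15 largest rises and 15 largest falls among called genes of at least 5 CPM whose groups did not overlap, the 10 of each at 100 CPM or more, called list members, and *Dhps*, *Dohh*, *Eif5a* and *Eif5a2*; list members that were not called were added to describe roles. Predicted genes and pseudogenes were left out of the first 2 rules. Hallmark gene sets were counted and are not described. Transcript lengths were those of the longest GENCODE M21 transcript (GRCm38). A few results that a list or rule gave are not reported here. Scripts were tested on simulated data. Alternatives are given in the closing section.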

Additional observations from a re-analysis of the deposited data

Results flagged for a closer look

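A single library lay far from the other 3 of its group (Dixon's test at its 95% critical value) in 24 of the 284 groups tested over 142 named genes. The chance rate of about 1 in 20 holds for groups not chosen by their values. These genes were mostly chosen as called in the same libraries, so that rate cannot be set against the count. ASP shSCR replicate 2 was the library in 15 of these. It was the highest control for *Ankrd37* (26.3 CPM, the others 2.75 to 3.85), *Notch3* (35.9, the others 17.14 to 19.99), *Mmp9* (109.7, the others 55.9 to 61.4), *Espn* (29.5, the others 6.96 to 8.88), *Sesn3* (272.8, the others 170.4 to 187.7), *Bhlhe41* (150.3, the others 82.9 to 89.0), *Cx3cl1* (345.4, the others 175.3 to 201.0), *Lama3* (105.2, the others 70.7 to 73.5), *Aldoc* (31.1, the others 9.70 to 11.6) and *Ephb6* (23.7, the others 10.8 to 11.7 CPM). It was the lowest for *Eif5a* (937 CPM, the others 1245 to 1271), *Eif5a2* (11.3, the others 13.2 to 13.5), *Lamp1* (581.5, the others 633.5 to 635.6), *Crtap* (81.2, the others 90.0 to 91.5) and *Psmd8* (116.9, the others 140.7 to 145.2 CPM). For each of these 15 genes its value was on the far side from the knockdown group, and *Eif5a* and *Eif5a2* were not called. Most named genes were chosen as called, many of them with groups that did not overlap, and that choice favours the far side.

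ASP shDHPS replicate 3 stood apart for *Derpc* (48.9 CPM, the others 5.46 to 12.4), *Cst6* (92.9, the others 69.4 to 72.0), *Tcf4* (81.7, the others 106.6 to 108.7) and *Ddit3* (29.2, the others 21.4 to 22.2 CPM). ASP shDHPS replicate 1 did so for *Ace* (14.9 CPM, the others 22.8 to 24.2), *Col7a1* (15.5, the others 29.1 to 30.2) and *Mrpl16* (31.3, the others 25.4 to 25.6 CPM). *Eif1ad* was low in ASP shDHPS replicate 4 (74.2 CPM, the others 80.5 to 80.9) and *Hmox1* was high in ASP shSCR replicate 3 (45.2 CPM, the others 29.3 to 31.7). What sets these libraries apart was not tested.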

How the results depend on the processing

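The *Dhps* difference stayed past the threshold under every alternative run, at -1.64 to -1.32. The 824 calls (322 higher, 502 lower) became 1379 (561 and 818) with DESeq2 1.42.0 and 27 (6 and 21) in a test against a 1.5-fold change. They became 449 (196 and 253) with ASP shSCR replicate 2 and ASP shDHPS replicate 1 both left out, and 354 (122 and 232) against NoASP shSCR. Leaving out each library in turn gave 412 to 894 calls (168 to 315 higher, 244 to 579 lower), with the fewest without ASP shSCR replicate 2 (412), ASP shDHPS replicate 3 (450) and ASP shSCR replicate 4 (565, of which 203 higher). Correction for GC content and length, chosen after the data were seen, gave 530 higher and 554 lower. Other scalings, filters, a robust prior and a fit of only the 8 libraries gave 673 to 915 calls. The cause of these shifts was not tested.

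In fits with a replicate block, 2150 genes were called over 14 libraries (892 higher, 1258 lower; all 824 among them) and 2026 over 8 (818 and 1208). Deviations of same-numbered libraries correlated with r of 0.258, 0.195, 0.201 and 0.04, and 3 of the 4 numbers correlated best with their own. As replicate 4 did not follow and no label ties equal numbers to a shared culture or day, the fit without the block was kept. *Eif5a* was called under both block fits and in no other.

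None of the 142 named genes changed direction under any alternative. Of the 139 called besides *Dhps*, 93 stayed called without ASP shSCR replicate 2, 90 without ASP shDHPS replicate 3, 85 without each library in turn and 17 under every alternative. Genes of few counts are less precise, and counts of overlapping genes or gene copies are uncertain.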
